A study of Drosophila melanogaster with 2 samples.

Results

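The regions described here are peaks of chromatin bound by the corepressor Gug that lie inside introns, away from a gene's start but not far from it. They were taken from the peak set deposited for both replicates together, not from the conservative set deposited beside it. The set used held 5750 peaks with a summit (the base of highest signal) on an assembled chromosome arm of dm6 (X, both arms of 2 and 3, and 4). A summit was counted when it lay inside an annotated gene, in no exon, and more than 500 bp but at most 5000 bp from the nearest transcript start of any gene. There were 1676 such summits, called near-start intronic summits below, or 29.15% of the 5750 (95% exact interval 27.98 to 30.34%). The remainder comprised 2060 summits within 500 bp of a transcript start, 950 intronic summits farther than 5000 bp from one, 918 intergenic summits and 146 exonic summits. Intervals on shares are exact binomial and those on densities exact Poisson, and both cover counting error only.

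ChIP-seq, the sequencing of DNA pulled down with a chromatin protein, was performed on whole Drosophila melanogaster prepupae aged 1 day, of the strain Gug-GFP, whose insertion targets Gug and gives a Gug-eGFP fusion protein. The pull-down used an antibody to GFP, chromatin was sonicated, and sex was not collected. There were 2 biological replicates, all of 1 group, per the labels. A whole animal mixes all tissues, so the cells in which a region was bound are not known, and binding in few cells cannot be told apart from weak binding in many. No untagged or other control sample was analysed here, so no background of the antibody stands beside these values.

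Gug, known in vertebrates through its relatives the atrophins, is a nuclear corepressor: it does not read DNA on its own but is brought to genes by sequence-specific factors such as Tailless and Even-skipped, and it recruits histone deacetylases. It is known for its part in segmentation, planar polarity through Fat, leg and eye patterning, and restraint of EGFR signalling. Introns of fly developmental genes, the first intron above all, often hold enhancers and silencers, which are the kind of element to which corepressors are recruited.

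The sequence of 5 strong regions is printed first because they carry the letters most enriched beside the summits, described further down. Each line gives 281 bases of the plus strand of dm6, 5′ to 3′, with the summit in the middle. Capitals mark any of 10 words of 6 letters, those with the highest ratio of their share beside summits to their share in flanking windows. They are marked where they are read towards the summit and lie 31 to 140 bp from it, and matches nearer the summit are left in lower case. The words are listed after the sequences. To the right of the summit they therefore appear as their reverse complement, for example CACTGT for ACAGTG. The 5 are the strongest regions outside the second chromosome's right arm that carry such a word on both sides of the summit, and their ranks among the 1676 by deposited signal were 1, 13, 18, 20 and 22.
CG11050, chr2L:6612567-6612847: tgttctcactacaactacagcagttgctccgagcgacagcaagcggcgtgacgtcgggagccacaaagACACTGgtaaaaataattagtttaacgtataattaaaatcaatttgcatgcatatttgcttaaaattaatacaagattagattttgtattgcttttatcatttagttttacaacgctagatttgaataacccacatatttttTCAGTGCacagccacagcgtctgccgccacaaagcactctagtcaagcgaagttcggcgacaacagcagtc
norpA, chrX:4324854-4325134: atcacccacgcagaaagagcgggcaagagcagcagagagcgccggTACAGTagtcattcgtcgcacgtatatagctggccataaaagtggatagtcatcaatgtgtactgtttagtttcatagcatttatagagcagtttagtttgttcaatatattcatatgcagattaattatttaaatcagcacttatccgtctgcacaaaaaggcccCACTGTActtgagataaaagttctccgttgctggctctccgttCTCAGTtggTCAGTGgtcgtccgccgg
MYPT-75D, chr3L:18640543-18640823: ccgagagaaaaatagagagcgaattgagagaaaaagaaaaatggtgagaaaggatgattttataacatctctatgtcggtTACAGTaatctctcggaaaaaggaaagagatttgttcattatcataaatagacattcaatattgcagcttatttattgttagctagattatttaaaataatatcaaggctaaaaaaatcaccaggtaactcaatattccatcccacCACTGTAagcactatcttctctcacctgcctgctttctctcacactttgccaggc
CHES-1-like, chrX:7706883-7707163: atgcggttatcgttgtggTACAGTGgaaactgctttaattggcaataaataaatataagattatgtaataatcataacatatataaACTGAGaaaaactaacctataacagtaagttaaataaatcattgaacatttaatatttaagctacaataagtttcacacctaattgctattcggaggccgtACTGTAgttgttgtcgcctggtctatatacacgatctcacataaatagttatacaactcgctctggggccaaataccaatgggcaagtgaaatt
for, chr2L:3655673-3655953: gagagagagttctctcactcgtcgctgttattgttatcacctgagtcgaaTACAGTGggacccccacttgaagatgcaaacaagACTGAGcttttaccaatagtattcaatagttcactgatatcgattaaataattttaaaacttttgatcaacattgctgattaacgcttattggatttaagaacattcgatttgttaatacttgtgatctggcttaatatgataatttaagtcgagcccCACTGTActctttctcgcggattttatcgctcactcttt
The 10 words, each with the share of all sides of near-start intronic summits on which it stood, were ACAGTG (11.31%), GCACTG (9.696%), TACAGT (9.01%), CACTGA (8.771%), ACACTG (8.562%), TACACT (8.532%), CACAGT (6.593%), ACTGAG (5.579%), GTACAC (5.042%) and CTACAC (4.893%). In flanking windows of the same length they were in 1.241% to 2.515%. In each of these 5 regions the middle 61 bases were poor in G and C, with a GC content of 21.3% to 26.2%. CG11050, the site of the strongest region, has only an annotation number for a name. Its intron is short, so both ends of its printed window run into coding exons, and the letters in capitals end at the first exon border and cross the next; the other 4 windows overlap no exon. norpA encodes the phospholipase C of phototransduction, MYPT-75D a targeting subunit of myosin phosphatase, CHES-1-like a forkhead transcription factor, and for a cGMP-dependent protein kinase.

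Near-start introns were denser in summits than introns farther away. Counted over the intronic sequence that meets the rule (24.54 Mb, called eligible intron), there were 68.29 summits per Mb (65.06 to 71.64), against 33.62 per Mb (31.52 to 35.83) in introns beyond 5000 bp. The density was 113.5 per Mb at promoters, 25.32 per Mb between genes and 5.521 per Mb in exons. The order was the same in each replicate's own list. Replicate 1 alone gave 46.57 near-start intronic summits per Mb, against 20.88 per Mb in far introns, and replicate 2 alone gave 47.63 per Mb, against 23.46 per Mb. In the set ranked before thresholding, the share that passed the authors' threshold had the same order. It was 12.33% (11.78 to 12.90%) of 13591 near-start intronic summits, 8.002% in far introns, 16.92% at promoters, 6.757% between genes and 1.027% in exons. The summits that did not pass had another order, with exons at 532.2 per Mb above near-start introns at 485.5 per Mb. They had 386.5 per Mb in far introns, 557.5 at promoters and 349.3 between genes.

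Within the range that the rule allows, density was highest next to the start. It was 98.41 per Mb (89.37 to 108.10) up to 1000 bp with 434 summits. It was 75.09 per Mb (68.81 to 81.78) from there to 2000 bp with 527 summits. Beyond 2000 bp it levelled off, with 52.66, 59.36 and 51.46 per Mb in the 3 bins of 1000 bp up to 5000 bp. Farther in, introns held 48.29 per Mb between 5000 and 7500 bp and 38.17 per Mb between 10000 and 20000 bp. Both replicates showed the fall: replicate 1 had 67.12 per Mb and replicate 2 had 67.35 per Mb up to 1000 bp, and they had 37.17 and 38.88 per Mb between 4000 and 5000 bp. The median signal lay between 113.4 and 116.1 in all 5 bins up to 5000 bp, and it was 108.0, 105.6 and 102.6 in the 3 farther bins.

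**Figure D1:**
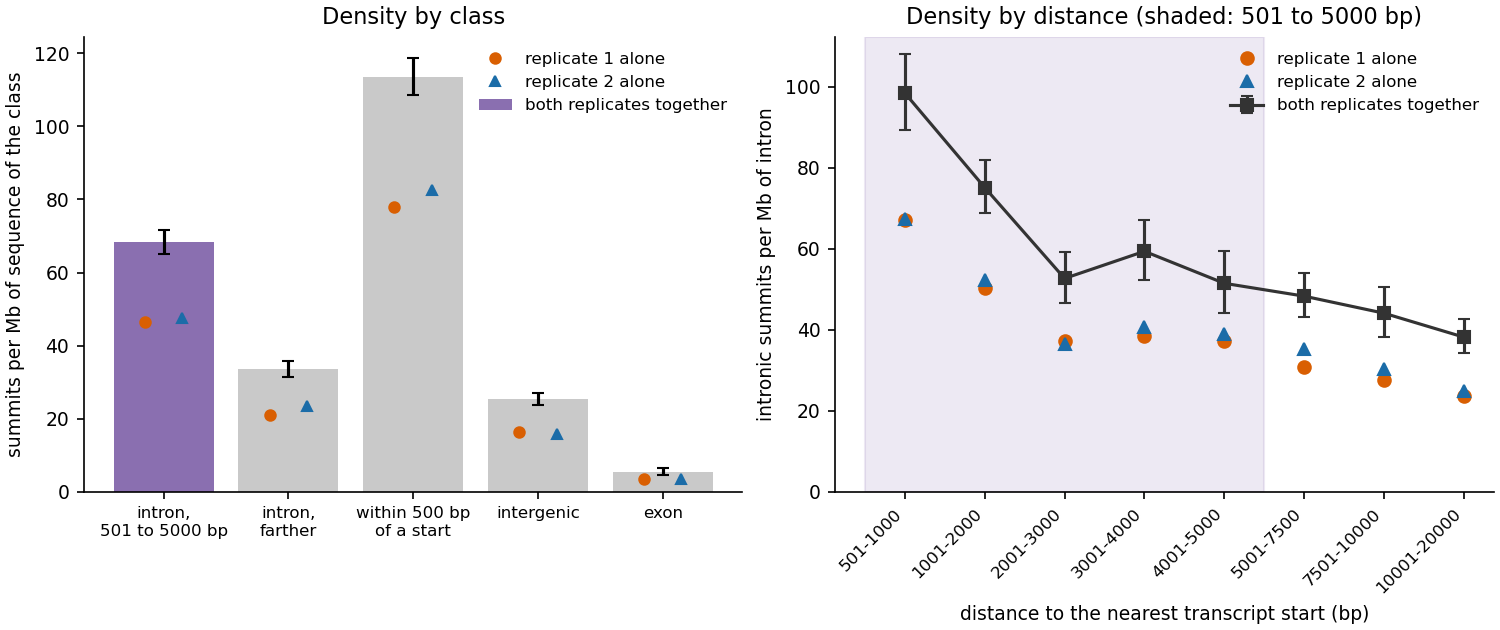
Left, summits per Mb of sequence in each class; right, intronic summits per Mb of intron against distance to the nearest transcript start, for both replicates together and for each replicate's own list, with 95% exact Poisson intervals. In the set of both replicates, density is 98.41 per Mb between 500 and 1000 bp and 38.17 per Mb between 10000 and 20000 bp, and each replicate alone falls from bin to bin up to 3000 bp.

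The distance fall was seen on both sides of the start. Downstream of it, along the gene's strand, density was 92.49 per Mb (81.50 to 104.50) up to 1000 bp and 51.71 per Mb (42.87 to 61.83) between 4000 and 5000 bp. Upstream of it, in the intron of an overlapping gene or of a longer transcript, it was 108.40 per Mb (93.07 to 125.60) and 51 per Mb (38.92 to 65.65). Of all 1676 summits, 63.60% (61.25 to 65.91%) lay downstream of the nearest start, close to the 65.50% of eligible bases that do. The nearest start belonged to the host gene in 76.97% and to another gene in 386 cases, of which 213 were protein-coding and 173 noncoding.

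First introns held more than their share. In all, 74.05% (71.88 to 76.13%) of the summits lay in the first intron of some transcript, as did 57.39% of eligible bases. Density was 88.11 per Mb (83.27 to 93.15) in first introns and 41.60 per Mb (37.78 to 45.70) in other introns. The difference held at every distance: it was 117.90 against 54.55 per Mb up to 1000 bp and 65.47 against 38.74 per Mb between 4000 and 5000 bp. Counting only the canonical transcript of each gene, 57.43% of 1433 summits were in a first intron, beside 43.4% of the eligible bases of such introns. By the lowest intron number in the host gene, 1230 summits lay in intron 1, 290 in intron 2, 81 in intron 3 and 75 in a later one. The introns were long, with a median of 7710 bp and quartiles of 3364 and 14910 bp.

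The X chromosome was the densest arm. It held 415 summits, or 85.73 per Mb (77.68 to 94.39), against 65.03 per Mb (61.49 to 68.72) for 1261 summits on the arms of chromosomes 2 and 3 together. Each of those 4 arms was lower than X, with values between 60.55 and 71.18 per Mb. The same gap stood in replicate 1 (62.18 against 43.42 per Mb) and in replicate 2 (60.12 against 45.28 per Mb). The number of X copies differs between the sexes, and its part in this gap was not tested. Chromosome 4 held 0 of the summits in 0.3090 Mb of eligible intron, a count of 0 that allows up to 11.94 per Mb.

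The deposited signal of these peaks spanned a wide range. It is the peak caller's own value, without a stated unit, and is used here only to describe peaks within a list. Its median was 113.8 with quartiles of 83.51 and 183.6, and the lowest and highest were 2.264 and 2333. The median was 105.9 in far introns, 104.8 between genes and 119.4 at promoters. Peak width had a median of 336 bp, with 84 bp the narrowest and 647 bp the widest. When all 5750 summits were ranked by signal and cut into 5 classes of 1150, near-start introns made up 29.04% of the strongest class and 27.13% of the weakest, with 29.13 to 30.78% in the middle 3.

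Presence in the replicates' own thresholded lists rose with signal. A summit of the replicate's own thresholded list lay within 100 bp in both replicates for 864 of the 1676 (51.55%, 49.13 to 53.97%), in 1 replicate for 464 (27.68%) and in neither for 348 (20.76%). In far introns 47.58% (44.36 to 50.81%) were in both lists, at promoters 53.54% (51.36 to 55.72%), and between genes 44.55% (41.31 to 47.84%). Of near-start intronic summits in the strongest of these classes, 98.80% were in both lists. The share was 92.09% in the next class, 53.13% in the middle one, 8.504% in the one after and 0.3205% in the weakest. A summit called on both replicates together with a signal below about 98 was therefore rarely called in each replicate by itself. The classes and the replicates' lists rest on the same libraries, so part of this rise follows from how they were cut.

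In the lists ranked before thresholding, 1486 of the 1676 (88.66%) had a counterpart in both replicates. Their signals in the 2 replicates had a Spearman correlation of 0.795 across summits, beside 0.746 in far introns, 0.840 at promoters and 0.723 between genes. This describes summits that share the same 2 libraries, which are not independent replicates. The value in replicate 2 was above that in replicate 1 for 1137 of the 1486 (76.51%), with a median ratio of 1.238 (quartiles 1.014 and 1.512). The read depth of the libraries is unknown here, so how far this ratio follows the libraries' depth was not tested.

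**Figure D2:**
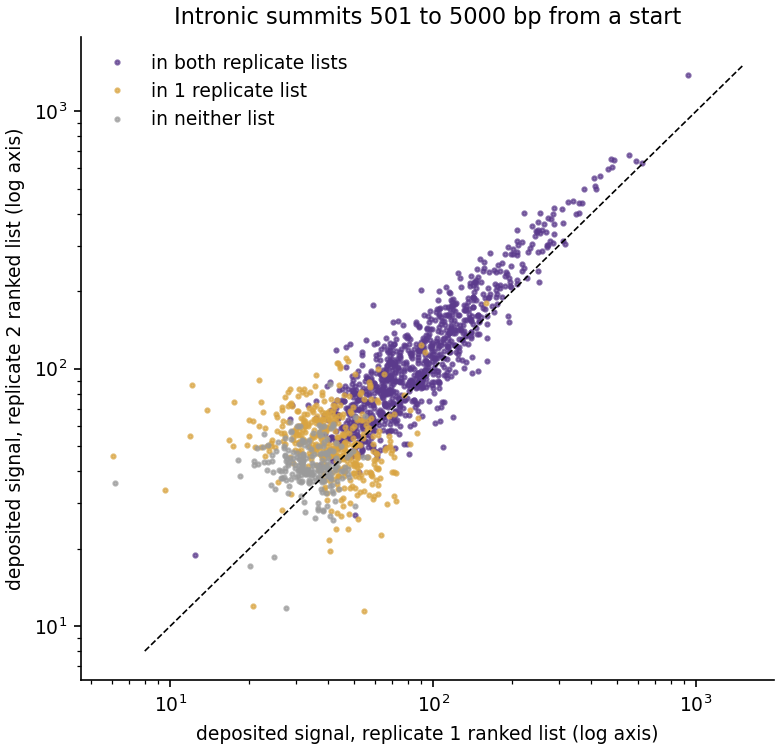
Signal of the 1486 near-start intronic summits found in both replicates' ranked lists, replicate 1 on the horizontal and replicate 2 on the vertical axis, both logarithmic and in the caller's unitless values. The points follow the diagonal with a Spearman correlation of 0.795, and 76.51% of them lie above the line of equal values.

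Most of these summits stood alone at short range. Another Gug summit of any class lay within 300 bp of 14.62% of the 1676, within 1000 bp of 35.62% and within 5000 bp of 73.63%. Linking near-start intronic summits at most 1000 bp apart left 1216 single ones, 186 pairs, 24 runs of 3 and 4 runs of 4. A promoter summit stood within 500 bp of the nearest start for 433 (25.84%, 23.75 to 28.00%), while 11.77% of eligible bases have such a start nearest to them. The 11.77% is not matched for distance to the start, and a promoter summit can lie close beside the intronic one. With a promoter limit of 250 bp the share was 15.39%, and no share of bases was counted for that limit. Within 500 bp, the share was 25.80% for summits downstream of the start and 25.90% for those upstream. Where both were present, the intronic peak had the higher signal in 223 of 433 pairs (51.50%, 46.68 to 56.30%).

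The 12 strongest regions were all called in each replicate's own list. The intronic peak of CG11050 (FBgn0031836; arm 2L, summit at 6612707, peak from 6612421 to 6612891) had a signal of 2333, with 934.5 in replicate 1 and 1382 in replicate 2. It lay 1020 bp downstream of the nearest start in an intron of 140 bp, the second of the gene, with no promoter summit at that start. CG4496 (arm 2L, summit at 7188622) followed with 1256, and with 621.4 and 630.4 in the 2 replicates. Next came Trl (FBgn0013263; arm 3L, summit at 14759509), the gene of the GAGA factor, a zinc finger protein that opens chromatin at GA repeats. Its second intron had a signal of 1226, with 593.2 in replicate 1 and 639.2 in replicate 2, and the summit lay 1540 bp downstream of a Trl start.

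Other genes of DNA-binding proteins stood among the 12. Adf1, which encodes a MADF-domain transcription factor, had 487.8 and 647.7 in replicates 1 and 2, and HmgZ, which encodes an HMG-box protein, had 480.8 and 610.3. ImpL2, an ecdysone-inducible gene for a secreted insulin-binding protein, had 408.3 and 549.2 at a summit 1072 bp upstream of a start. Tlk, the Tousled-like kinase gene, had 414.0 and 511.8 in an intron of 41450 bp. CG12769 had 556.4 and 675.6, CG32772 had 474.9 and 653.1, CG3726 had 464.4 and 596.4, Reph had 431.7 and 558.9, and CG9663 had 375.4 and 498.2. Replicate 2 was the higher in all 12, and the lowest value of any of them in a replicate was 375.4, beside medians of 56.26 and 67.70 over all near-start intronic summits in replicates 1 and 2.

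**Figure D3:**
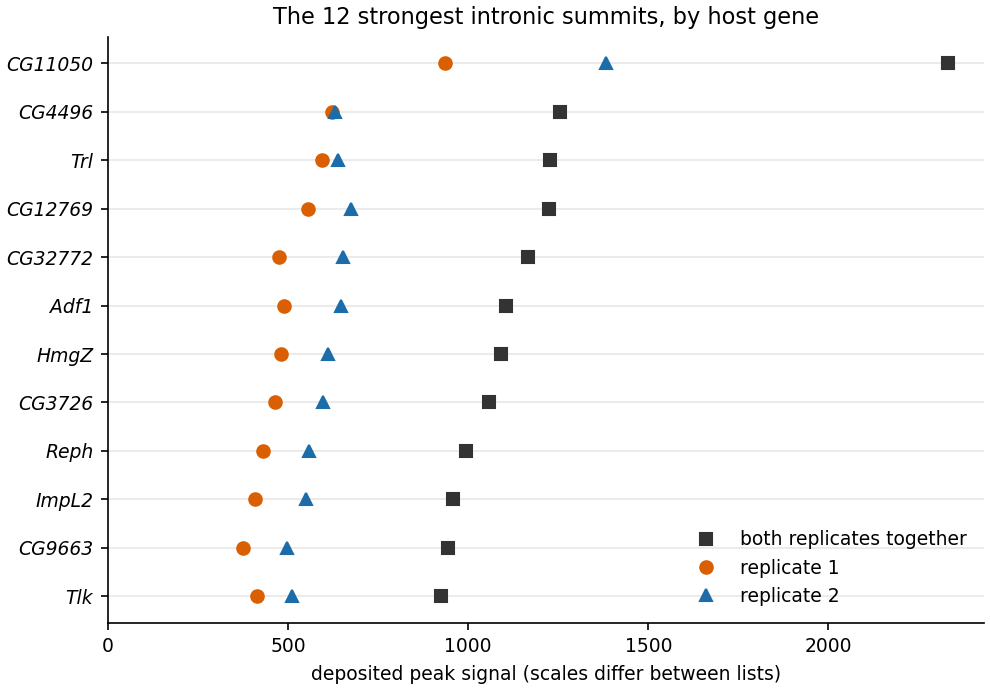
Signal in replicate 1 and replicate 2 of the 12 near-start intronic summits with the highest deposited signal for both replicates together, named by host gene, in the caller's unitless values. CG11050 stands alone at 934.5 and 1382, and the other 11 lie between 375.4 and 675.6.

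At least 1 of these summits fell inside 959 of the 13945 protein-coding genes on the arms, which is 6.88% of them, and inside 10.54% of the 9101 genes that have any eligible intron. There were 382 genes with 2 or more, 188 with 3 or more and 42 with 5 or more. Genes with a summit had far more eligible intron, a median of 7.135 kb against 0.3580 kb in genes with eligible intron and none. A promoter summit marked 386 of the 959 genes (40.25%, 37.13 to 43.43%), against 1382 of 8142 genes without (16.97%, 16.16 to 17.81%). The gap was present at each length of eligible intron examined: in genes with 2 to 5 kb it was 35.71% (29.80 to 41.97%) against 16.49% (14.28 to 18.89%), and in genes with 10 to 20 kb it was 38.46% (32.20 to 45.02%) against 17.39% (12.93 to 22.63%). Genes with a summit also had more transcript starts, a median of 2 against 1. Within genes of 1 start the shares with a promoter summit were 23.72% (19.26 to 28.67%) against 13.78% (12.90 to 14.70%), within genes of 2 starts 37.95% (32.47 to 43.68%) against 20.84% (18.93 to 22.85%), and within genes of 4 or more 66.48% (58.99 to 73.40%) against 40% (33.88 to 46.36%).

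The genes with the most summits were mostly long ones. CG1677 on the X chromosome (FBgn0029941, 7281089 to 7405797, minus strand) spanned 18, of which 14 lay in its own introns only; 2 were in the nested gene Atg5, 1 in Dok and 1 in CBP. Of the 18, 7 were in both replicates' lists, and the highest signal was 552.7 in the first intron of Dok. For 5 of the 18 the nearest start was that of brk, the gene of the Brinker repressor. shn, the gene of the zinc finger factor Schnurri that acts with Mad in Dpp signalling, held 15 summits in 34.54 kb of eligible intron, and 8 were in both lists. Its strongest had 171.7 in replicate 1 and 212.7 in replicate 2.

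Tlk held 11 summits, of which 9 were in both lists, spread over 34.60 kb of eligible intron. CHES-1-like held 9 in only 14.66 kb, or 61.38 per 100 kb, and 8 were in both lists. Svil, the gene of the actin-binding supervillin, also held 11, but over 69.55 kb. The other genes of the top 10 were CG12535, Samuel, sbb and tna with 9 each and Ptp61F with 8. Samuel had 2 of its 9 in both lists and Ptp61F 2 of its 8, with 4 of the Ptp61F summits in the nested gene ru and 1 in rho. psq and tou equalled Ptp61F with 8 summits each, 0 of them in both lists for psq and 6 for tou.

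Gene groups differed widely in how many summits their eligible introns held. The reference for them is all protein-coding genes, with 68.37 summits per Mb (65.10 to 71.75), 46.76 per Mb in replicate 1 and 47.92 per Mb in replicate 2. The groups highest in density were chromatin regulators and the Dpp and EGFR pathways, each near or above 200 per Mb, and the lowest with more than 0 were genes of the synapse, of limb patterning and of segmentation, each under 23 per Mb. Of the 24 groups, 10 had an interval wholly above the reference (with all their genes included), and these were above the replicates' own reference values in both replicates. In 3 groups it lay wholly below, again in both replicates, and in 11 it held the reference. Some genes stand in more than 1 group, and a gene can hold a summit that lies in the intron of a gene nested in it. Neighbouring summits were counted singly in these groups, and those within 300 bp were joined only for the whole set of summits.

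Corepressors and histone deacetylases, the class to which Gug belongs, held 24 summits in 9 of 25 genes, or 227.7 per Mb (145.9 to 338.8). The single replicates gave 170.8 and 161.3 per Mb. Gug itself, the tagged gene, had an intronic summit at 8455623 on arm 3L, 4975 bp downstream of a start, with 259.0 in replicate 1 and 286.7 in replicate 2. sbb, the gene of the corepressor Brakeless that works with Tailless, had 9 summits, and its strongest had 209.1 in replicate 1 and 276.1 in replicate 2. emc, whose product sequesters proneural factors, had 103.4 and 110.5. Without sbb the group was at 176.7 per Mb (98.88 to 291.4).

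Polycomb and Trithorax genes, which maintain silent and active states of chromatin, held 22 summits in 7 of 34 genes, or 221.1 per Mb (138.5 to 334.7), and 140.7 per Mb in each replicate. Besides Trl, kis, the gene of a CHD-type remodeller, had 100.8 and 116.8 in the 2 replicates at its strongest summit. psq, the gene of the BTB protein Pipsqueak, had 104.9 in replicate 1 at its strongest summit and no counterpart within 100 bp in replicate 2. The replicates' own lists held 5 and 3 near-start intronic summits in psq. Without psq, which held 8, the group was at 182.6 per Mb (99.85 to 306.4).

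In the Dpp pathway, whose ligand acts through serine-threonine kinase receptors and Mad, 11 of 26 genes held 38 summits, or 212.3 per Mb (150.2 to 291.3), with 145.2 and 178.7 per Mb in the replicates alone. Among receptors and coreceptors, wit, a type II receptor, had 357.6 in replicate 1 and 439.4 in replicate 2, and the glypican gene dlp had 111.4 and 161.6. shn accounted for 15 of the 38, and without it the density was 159.2 per Mb (100.9 to 238.8).

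In the EGFR and Ras group 18 of 30 genes held 41 summits at 199.9 per Mb (143.5 to 271.2). That is 60% of its genes, the highest share of the 24 groups, beside 6.88% of all coding genes. Its genes had more eligible intron, however, with a median of 4.188 kb against 0.1190 kb in all coding genes. Among all genes with 2 to 5 kb, 19.55% (17.42 to 21.82%) held a summit. The replicates alone gave 131.7 and 141.4 per Mb. The receptor gene Egfr held 6 of them, and without it the density was 189.5 per Mb (132.0 to 263.5). The adaptor gene drk had 179.9 in replicate 1 and 239.6 in replicate 2. Among regulators of the pathway, edl, whose product binds the ETS repressor Yan, had 340.5 and 448.2, and sty, the gene of the feedback inhibitor Sprouty, had 251.2 and 372.4.

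Of the other signalling groups, the intervals of Fat and JAK-STAT genes lay above the reference, that of Wingless genes did so only with fz2 included, and those of insulin, Hedgehog and Notch genes held it. In the Fat, Hippo and planar polarity group 15 of 35 genes held 30 summits at 139.6 per Mb (94.2 to 199.3). There, crb, an apical polarity gene, had 111.5 and 208.3 in replicates 1 and 2, and Diap1, an apoptosis inhibitor and Hippo target, had 139.6 and 153.1. JAK-STAT genes had 162.8 per Mb (91.13 to 268.6) in 4 of 12 genes. Their ken, a repressor, had 148.6 and 162.1, Stat92E, the transcription factor of the pathway, had 73.94 and 99.09, and the strongest within the phosphatase gene Ptp61F lay in ru with 128.4 and 130.2. Ptp61F held 8 of the 15 summits, and without it the density was 226.5 per Mb (91.06 to 466.6).

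For Wingless genes the density was 117.1 per Mb (75.01 to 174.2) in 12 of 27 genes, but 109.1 per Mb (65.69 to 170.4), an interval that holds the reference, without the receptor gene fz2 and its 5 summits. The kinase gene sgg had 149.6 and 135.9 in replicates 1 and 2, the inhibitor nkd had 105.4 and 170.9, and the receptor gene fz had 103.3 and 131.4. Insulin and TOR genes had 102.7 per Mb (41.28 to 211.5) in 5 of 26, with S6k, foxo and chrb as the 3 strongest at 134.3, 120.1 and 107.9 for both replicates together. Hedgehog genes had 74.78 per Mb (30.06 to 154.1) in 4 of 18, among them the receptor gene ptc with 98.57 and 112.1, the coreceptor gene boi with 107.2 and 158.8, and rdx with 72.77 and 109.1. Notch genes had 67.42 per Mb (30.83 to 128.0) in 6 of 32, although neur, the ligase that activates Delta, had 254.8 and 402.3, and mam, the coactivator Mastermind, had 273.5 and 302.9. Nak, the last of the 3 strongest there, had 91.82 and 95.55.

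Genes of hormone response, clock and cell death had values above the reference, with the interval of clock genes just reaching it. The ecdysone cascade, by which the steroid hormone sets off metamorphosis, held 45 summits in 16 of 38 genes, or 130.9 per Mb (95.50 to 175.2), with 104.7 and 101.8 per Mb in the replicates alone. Besides ImpL2, the nuclear receptor gene Hr4 had 269.5 and 339.8, and Eip63E, an ecdysone-induced kinase gene, had 143.6 and 216.3. Eip75B, another nuclear receptor gene, held 7 summits, the most in the group, and without it the density was 132.9 per Mb. Circadian clock genes had 125.0 per Mb (68.34 to 209.7) in 5 of 15, among them Pdp1 with 123.6 and 121.7 and vri with 100.3 and 97.95, which encode bZIP factors of the clock. Cell death and autophagy genes had 152.9 per Mb (81.42 to 261.5) in 5 of 37, but 100.6 per Mb (43.45 to 198.3) without Diap1; the kinase gene Atg1 had 87.92 and 95.98, and kay, the gene of Fos, had 60.49 and 109.2.

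Regulators of the actin cytoskeleton and small GTPases held 48 summits in 27 of 50 genes, or 113.8 per Mb (83.88 to 150.8), an interval above the reference. Moe, the ERM protein gene, had 217.7 and 239.3 in replicates 1 and 2, tsr, the gene of cofilin, had 163.3 and 237.4, and the formin gene Fhos had 182.4 and 257.7. Proneural and neural fate genes had 107.3 per Mb (67.22 to 162.4) in 10 of 33, with brat, a translational repressor of stem cell growth, at 243.8 and 329.2. The zinc finger gene sr had 112.0 and 142.0 there, and jim had 98.37 and 120.2.

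Among groups of lower density, the interval lay below the reference for axon guidance genes and held it for muscle fate, Hox and eye genes, while some of their genes were strongly marked. Axon guidance and adhesion genes, which have a median of 8.355 kb of eligible intron, held 38 summits in 22 of 58 genes at 46.50 per Mb (32.91 to 63.83). Sema1a, a guidance ligand gene, had 187.2 and 228.4, the receptor phosphatase gene Ptp10D had 143.0 and 188.0, and a summit in CG32795, within the bounds of kirre, had 207.7 and 220.8. Muscle and heart fate genes had 49.52 per Mb (23.75 to 91.07) in 6 of 31, led by the repressor gene zfh1 with 187.6 and 279.1, then Mef2 with 67.97 and 105.8 and nau, the fly relative of MyoD, with 52.18 and 69.12. Hox and homeotic genes had 47.63 per Mb (17.48 to 103.7) in 3 of 17, among them the cofactor gene hth with 97.50 and 143.1 and Abd-B with 34.19 and 61.94. The summit within Antp lay in CG46458, had 33.77 and 36.22, and was in neither replicate's list. Eye genes had 41.75 per Mb (15.32 to 90.86) in 4 of 28, with gl and sev after hth at 134.1 and 120.6 for both replicates together.

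The interval also lay below the reference for limb patterning and synaptic genes, and it held the reference for muscle structural and segmentation genes. Muscle structural genes had 36.78 per Mb (13.50 to 80.05) in 4 of 29, with the giant scaffold gene Msp300 at 170.1 and 242.3, tmod at 72.47 and 130.0, and rhea, the talin gene, at 67.06 and 91.58. Segmentation genes had 2 summits, both in nkd, or 22.56 per Mb (2.733 to 81.51) in 1 of 29 genes. Limb patterning genes had 21.53 per Mb (6.990 to 50.24) in 2 of 37, which were bowl with 104.7 and 185.2 and hth. Genes of neuronal excitability and the synapse were lowest with 14.43 per Mb (5.296 to 31.41), although their median of 7.689 kb of eligible intron per gene was exceeded in only 1 of the 24 groups, axon guidance. They held 6 summits in 5 of 45 genes, and the replicates alone gave 9.621 and 12.03 per Mb. The synapsin gene Syn had 102.7 and 166.0, the phosphodiesterase gene dnc 103.2 and 97.91, and mAChR-A, a muscarinic receptor gene, 95.41 and 87.19. The 79 ribosomal protein genes held 0, but they have only 0.005157 Mb of eligible intron, and a count of 0 there allows up to 715.3 per Mb.

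**Figure D4:**
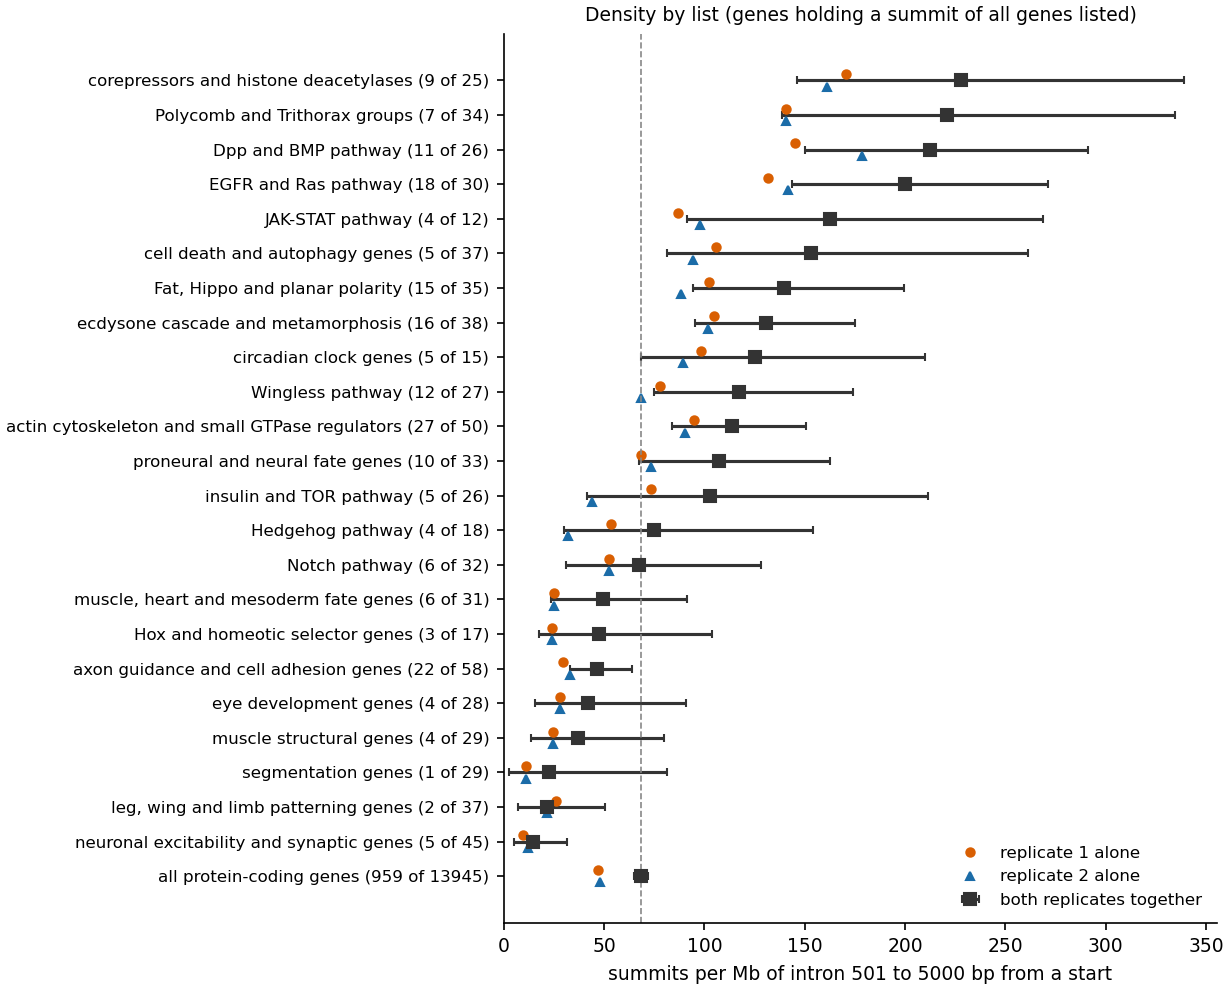
Near-start intronic summits per Mb of eligible intron in each gene group, with 95% exact Poisson intervals, for both replicates together and as points for each replicate's own list; the dashed line is the value of all protein-coding genes, 68.37 per Mb, while the replicates' points compare with 46.76 and 47.92 per Mb in the lowest row. Ribosomal protein genes, with 0 summits, are not drawn. Corepressors (227.7 per Mb), Polycomb and Trithorax genes (221.1) and the Dpp pathway (212.3) are highest, and synaptic genes (14.43) lowest among groups with a summit.

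The DNA at the summits was poor in G and C. Windows of 200 bp at the 1676 summits had a median GC content of 35% (quartiles 31 and 40.5%), against 41% in windows 1000 bp to either side and 40% in 119673 windows tiled over eligible intron. The median was also 35% in far introns, at promoters and between genes, so low GC is shared by Gug summits of these classes. It was 34.5% at the strongest 400 and 40% at the weakest 400, which include summits close to a stronger one. Measured in steps of 20 bp, GC content was lowest right at the summit (33.05% at 0 to 19 bp) and highest beyond it (45.14% at 200 to 219 bp). Windows in which at least 50% of bases are in lower case in the soft-masked genome, which marks repeats, made up 4.296% of summit windows, 2.676% of flanks and 5.673% of tiles.

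None of 53 motifs of known fly factors or simple repeats, searched on both strands, was more frequent in the 200 bp at the summits than in windows of that length beside them, judged by intervals that do not overlap. For 50 the intervals overlapped, and for 3 the summits were lower: CCGGAA, read by ETS factors, in 2.327% against 5.480% of flanks, GCCGNCG, read by Mad, in 3.878% against 6.802%, and ACAATGG, read by Sox factors, in 1.671% against 3.449%. The windows also differ in GC content, and its part in this was not tested. Flanks were not limited to introns and can hold promoters or exons. Set against the tiles of eligible intron, 2 repeats had intervals above. These were GAGAG (22.36 to 26.53% against 20.45 to 20.91%) and GAGAGAG (3.27 to 5.248% against 2.597 to 2.781%). Some other motifs lay below the tiles, such as TGACAG (4.232 to 6.429% against 7.852 to 8.16%). The letters AAGTCA, the core of the Tailless site, were in 10.56% (9.13 to 12.13%) of summit windows and 10.61% of flanks. The DRE, TATCGATA, was in 0.2387%, against 0.7737% of flanks, and in 3.01% of windows at promoter summits. GAGAGAG, bound by the GAGA factor, was in 4.177% of summit windows, 5.061% of flanks and 2.688% of tiles. Its place relative to the summit mattered: it occurred 0.319 times per kb within 50 bp of the summit, 0.934 between 100 and 200 bp, 0.925 between 200 and 300 bp and 0.468 between 800 and 1200 bp. In windows of 400 bp it was therefore 1.469 times as frequent at summits as in flanks, in windows of 200 bp 0.8252 times and in windows of 100 bp 0.4966 times. CACACACA behaved alike, with 0.473 per kb within 50 bp, 1.64 between 200 and 300 bp and 0.826 between 800 and 1200 bp. Both sit where GC content is higher, and the part of base composition in their placing was not tested.

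A different set of letters was frequent close to the summits, and its words were chosen after their values were seen. The leading word of 6 letters was found by comparing all 2080 such words in summit windows and flanks, strands joined. ACAGTG, with its reverse complement CACTGT, was in 21.24% of summit windows and 7.866% of flanks. Its orientation differed on the 2 sides. To count it, the bases 31 to 140 bp from each summit were read towards the summit, which gives 3352 sides, and were set beside 6204 flank windows of the same length. ACAGTG stood on 11.31% (10.25 to 12.43%) of sides, its reverse complement on 3.848% (3.223 to 4.556%), and flank windows held it at 2.305%. The longer word TACACTG was on 4.863% of sides, in reverse on 0.6862%, and in 0.3546% of flank windows. CACTGAGA was on 3.103%, in reverse on 0.4177%, and in 0.1451% of flank windows. In steps of 20 bp along the plus strand, ACAGTG peaked at 32.82 per 1000 summits 80 to 61 bp to the left, and CACTGT at 29.83 per 1000 summits 60 to 79 bp to the right.

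**Figure D5:**
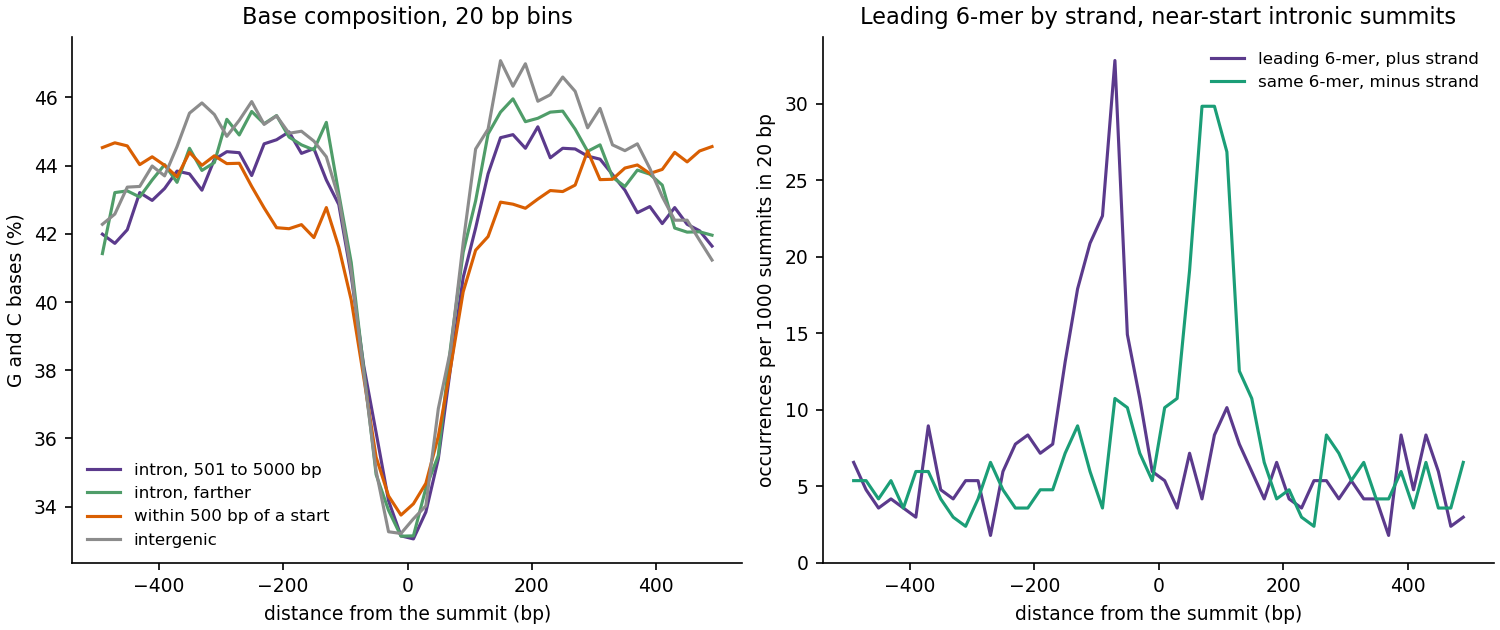
Left, GC content in steps of 20 bp from the summit in near-start introns, far introns, at promoters and between genes; right, matches per 1000 near-start intronic summits of the leading word on the plus and the minus strand. In near-start introns GC content has its lowest value of 33.05% at the summit; the word and its reverse complement peak on opposite sides, at 32.82 and 29.83 per 1000 summits.

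Many regions carried such words on both sides, as the 5 printed above do. At least 1 of the 10 words listed there, read towards the summit, was on both sides of 368 summits (21.96%, 20 to 24.02%), against 2.128% of flank windows split in the same way. It was on neither side of 36.63% of summits, against 73.5% of flanks. The 10 words had been picked for the highest ratio of these same sides to flanking windows, among 999 words found on at least 100 sides. Some excess over flanks is therefore built in, and the interval does not cover it. The share on both sides was 23.79% (21.11 to 26.63%) in far introns, 22.88% (20.19 to 25.73%) between genes and 12.67% (11.26 to 14.18%) at promoters. The pattern is thus not particular to near-start introns. Between the 2 words lay a median of 157 bases (quartiles 140 and 178).

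The words followed peak strength and were in both replicates. They stood on both sides of 32.0% (27.45 to 36.82%) of the strongest 400 near-start intronic summits and of 12.5% (9.422 to 16.15%) of the weakest 400. The weakest 400 include summits close to a stronger one, and their part in this gap was not tested. ACAGTG read towards the summit was on 13.31% of sides for summits in both replicates' lists and on 8.477% for those in neither. Over the near-start intronic summits of each replicate's whole list, many of which are shared, it was on 12.29% of sides for replicate 1 and 12.28% for replicate 2. CACTGAGA varied with distance within near-start introns, with 4.336% (3.340 to 5.524%) beyond 2000 bp and 2.185% (1.579 to 2.942%) up to 2000 bp. It was on 4.632% of sides in far introns and 0.9709% at promoters. Of the 12 strongest regions, 1 had a leading word on both sides, 5 on 1 side and 6 on none. Most of the strongest single peaks therefore lacked the words on both sides, and the 5 printed regions were picked for having them. What gave rise to these letters at the summits was not tested.

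Just inside the nearer bound were CG9896, at the first base allowed, with a signal of 76.37, and MESR3 (502 bp from a start) with 92.21, and just outside were ebd2 (500 bp) with 16.53 and Btk (495 bp) with 112.1. Just inside 5000 bp were CG46339 (4999 bp) with 238.5 and chm (4986 bp) with 96.32, and just outside were spin (5005 bp) with 61.05 and E2f1 (5008 bp) with 86.58.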

How the data were processed

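The deposited files were peak lists on dm6, per the labels, for 2 biological replicates of 1 group. Each replicate had a ranked and a thresholded list. Both together had 2 ranked lists, a thresholded list, which was used here, and a conservative thresholded list. The conservative set held 5707 peaks on the arms, of which 1695 were near-start intronic summits. Each peak has a deposited signal, the value given by the peak caller without a unit. The ranked lists also hold the −log10 of the irreproducible discovery rate (IDR), deposited by the authors, which measures how reproducibly a peak ranks. In the ranked list of the set used here, 2.061% of matched signals stood in replicate 1's own list, against 61.48% in the other ranked list. The IDR of this set was therefore taken to compare splits of the joined reads, not the 2 replicates with each other. When the files were compared, thresholded peaks were those at a global IDR up to 0.01, but 104 of 5857 such ranked peaks were absent from the thresholded list of both replicates. Every list was made with a control alignment, per the README files, and the thresholded ones with 1 more region file. Aligner, peak caller, versions and read depth are not given in the sources used here, so the precision that depth gives is unknown. Of the 5753 peaks, 5750 lay on the arms. Replicates 1 and 2 alone gave 3827 and 4000 peaks. Columns of per-sample values without a sample numbered 0.

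Summits were placed with Ensembl release 115 on dm6, transposable elements left out. A summit or signal was matched to a replicate within 100 bp. Densities are counts over sequence of the same class. Motif windows were 200 bp, and flanks 1000 bp away were dropped within 200 bp of another summit. Python 3.11.15 with numpy 2.4.6, pandas 2.3.3, scipy 1.17.1 and matplotlib 3.10.9 was used. The count of words beside summits was tested on simulated sequence with planted words. A ratio of densities was also checked on placed summits. The counts by intron, gene group and replicate were not tested in this way. With 1 group and no control group, nothing was tested between conditions; shares and densities carry 95% exact intervals.

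The regions, the 24 gene lists and the motifs were chosen with earlier results of these data known, and the 6-letter words were chosen after their values were seen. Of 814 list names, 772 matched a symbol, 29 an older symbol and 10 a name corrected by hand; 3 matched none. Genes named were the hosts of the 12 strongest regions, up to 3 hosts per list with the highest signal, the 10 with the most regions (psq and tou, tied with the last, and Egfr, Eip75B, fz2 and brk were added after their values were seen), the regions just inside and outside each bound, and those whose sequence is printed. Alternatives were other peak sets, thresholds, annotations, overlaps and windows, and each replicate left out.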

Additional observations from a re-analysis of the deposited data

How the results depend on the processing

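Of 58 alternatives to the 11 values examined, 31 moved the value by less than its counting interval (a count of regions by less than 1.5 times) and 27 by more. The number of regions stayed within 1.5 times, from 1143 in replicate 1 alone to 1734 when only coding exons were left out. At an IDR of 0.001 or less, density was 48.33 per Mb, 71.67% of regions were in both replicates' lists, the median signal was 150.6, 19.81% had a promoter summit at the nearest start, 5.407% of coding genes held a region, and ACAGTG stood on 12.69% of sides; fewer and stronger peaks enter by construction. Each replicate alone gave 46.57 to 47.63 per Mb, a median signal of 68.45 to 83.69, a promoter summit for 18.90 to 20.27% and 5.378 to 5.385% of genes. Density was 63.36 per Mb with summits within 300 bp joined, 84.09 up to 2000 bp from a start and 54.52 beyond. The share in both lists was 55.37% with any overlap of peaks, 43.79% with an overlap of at least 50% of both peaks, and 45.47% with summits at most 50 bp apart. Canonical transcripts put 57.43% in a first intron, and a promoter limit of 250 bp put a promoter summit at the start of 15.39%. GC content was 32% in windows of 100 bp and 39.75% in windows of 400 bp, and the ratio of GAGAGAG at summits to flanks was 0.4966 and 1.469, which turns its direction. With sides of 21 to 200 bp, ACAGTG stood on 13.96%. Where no cause is named, the cause was not tested. No paired analysis was possible because the labels give a single group. Read depth is unknown, so peaks missing from a replicate's list may lie under its detection limit.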
